A study of Solanum tuberosum with 12 samples.

Results

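The miR172 sequences of potato (*Solanum tuberosum* group *Andigena*, clone ADG573) are described here, as they stand in a list of miRNAs predicted from small RNA libraries. All entries named PotatoMir1004398855, PotatoMir1001772511 or PotatoMir1001772509 were taken, which gave 3 of the 222 distinct mature sequences and 5 of the 324 loci of the list. The 12 libraries were made from leaf under long days (LD, 3 biological replicates), leaf under short days (SD, 3), stolon under SD (3) and swollen stolon under SD (3). All plants were of the same clone without a transgene or mutation in the labels, were propagated in vitro, spent 4 weeks under LD in a glasshouse and were then moved to LD or SD cabinets at 20 °C. ADG573 forms tubers under SD and not under LD. The labels give 8 days in the cabinets for all 4 groups, whereas the study's methods name later days for stolon. The authors pooled all libraries before the prediction, so each sequence has 1 read number over leaf and stolon together. The depth of each library is unknown from the list, and day lengths and tissues were not compared because replicate errors could not be had.

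In plants a miRNA is cut from the stem of a hairpin transcript as a duplex of the mature strand and the star strand. The mature strand is loaded into an Argonaute protein and guides it to complementary mRNAs. miR172 is a conserved plant miRNA whose known targets are mRNAs of APETALA2-like transcription factors, which repress flowering in Arabidopsis. In potato it is known as an inducer of tuber formation, with *RAP1* (*Relative to APETALA2 1*) as one of its targets. miR156 acts before miR172 in the age pathway of Arabidopsis, where it targets SPL transcription factors.

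The 3 mature sequences are shown as the DNA equivalent, with bases 2 to 8 (the seed) in capitals, because their ends are what tells them apart.
PotatoMir1004398855: gGAATCTTgatgatgctgcag
PotatoMir1001772511: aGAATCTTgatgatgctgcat
PotatoMir1001772509: aGAATCTTgatgatgctgc

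The 3 sequences had a single seed in common, and no other sequence of the list had it (3 of 222, 1.35%). They also shared the 18 bases gaatcttgatgatgctgc without a gap. PotatoMir1004398855 and PotatoMir1001772511 were both 21 nt and differed at both ends and nowhere between, by G1A and G21T (the base of PotatoMir1004398855 first, positions counted from 1 at the 5′ end). PotatoMir1001772509 was 19 nt and was identical to the first 19 bases of PotatoMir1001772511, from which it differed only by the lack of the last 2 bases at the 3′ end. The list held 2 sequences of 19 nt (0.901%), and 2 sequences that lay whole inside a longer mature sequence of the list (0.901%), of which PotatoMir1001772509 is one in each case. Outside the family the closest sequences shared 12 bases with a member in an alignment without gaps, where the median over the other sequences was 8. These included PotatoMir1001522481 for PotatoMir1004398855, which has no homologue name and 6 reads.

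None of the 3 sequences started with T. PotatoMir1001772511 and PotatoMir1001772509 started with A and PotatoMir1004398855 started with G. Of the 59 distinct 21 nt sequences of the list, 57.6% started with T (U in the RNA), 23.7% with A and 5.08% with G, which was 3 sequences. Argonaute proteins of plants are known to sort small RNAs by this base, and AGO1, the main carrier of miRNAs, is known for U. No loading was measured here.

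The 21 nt forms had almost equal read numbers, and the 19 nt form had few reads. PotatoMir1004398855 had 67 reads (95% Poisson interval 51.9 to 85.1), PotatoMir1001772511 had 60 reads (45.8 to 77.2) and PotatoMir1001772509 had 6 reads (2.2 to 13.1). The ratio of the 21 nt forms was 1.12 (95% exact interval 0.776 to 1.61), so that their order was not determined at this depth. The 19 nt form was lower, with 1 read for 10 reads of PotatoMir1001772511 (ratio 10, interval 4.33 to 28.3) and a ratio of 11.2 (4.87 to 31.5) for PotatoMir1004398855. Intervals cover counting error only, since the libraries are pooled and the spread between them cannot be had. They are too narrow where amplified copies of a molecule are counted as separate reads. Of the 133 reads of miR172 (111 to 158), 50.4% belonged to the form with G at base 1 and 49.6% to both forms with A. Read sums of miR172, as of every family here, cover only the exact sequences in the list and no other length forms. The 19 nt form held 4.5% (95% Clopper-Pearson interval 1.7 to 9.6%).

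**Figure D1:**
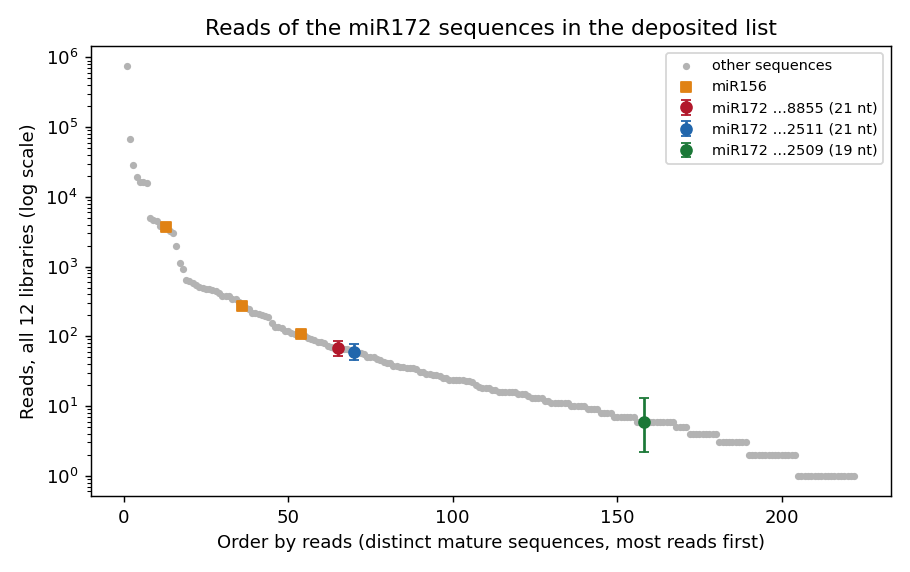
Reads of each distinct mature sequence over all 12 libraries (y axis, log scale) against its order by reads (x axis), with 95% Poisson intervals for miR172 in colour and miR156 as squares. The 21 nt forms with 67 and 60 reads have intervals that overlap, and the 19 nt form with 6 reads lies among the sequences with few reads.

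Of the 222 sequences, 64 had more reads than PotatoMir1004398855, 69 had more than PotatoMir1001772511 and 155 had more than PotatoMir1001772509. Each 21 nt form shared its read number with 1 other sequence, PotatoMir1006130958 (24 nt) at 67 reads and PotatoMir1006083449 (21 nt) at 60 reads. PotatoMir1003003528 with 68 reads was next above PotatoMir1004398855 and PotatoMir1002596487 with 58 reads was next below PotatoMir1001772511, both 24 nt and without a homologue name. Directly below PotatoMir1004398855 were PotatoMir1001726600 (24 nt) and the miR171 sequence PotatoMir1005890965 (21 nt), with 65 reads each. The intervals of PotatoMir1003003528 (52.8 to 86.2 reads) and PotatoMir1002596487 (44 to 75 reads) overlapped those of the miR172 neighbours. The read number of the 19 nt form was shared by 11 other sequences, and 36.9% of the list had fewer than 10 reads.

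Summed over its sequences miR172 was at rank 19 of the 28 families with a homologue name, between miR397 with 137 and miR408 with 107 reads, and under the median of 351.5 reads. It was higher in the number of its sequences and loci, since only 5 families had more loci and 2 had more sequences. All 133 reads were 0.0139% of the 954147 reads of the list (95% Clopper-Pearson interval 0.0117 to 0.0165%).

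The miR156 family, the partner of miR172 in the age pathway, had 4050 reads from 3 sequences at 11 loci. This was 30.5 times the reads of miR172 (95% exact interval 25.6 to 36.5). PotatoMir1005875292 had 3670 reads, PotatoMir1005405793 had 273 and PotatoMir1003904305 had 107, so that its lowest sequence was above each miR172 sequence. Leaf and stolon libraries are pooled in these numbers, and fewer cells with a miRNA cannot be told apart from fewer copies in each cell.

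The 5 hairpins lay on 5 different superscaffolds of the DM potato genome, 4 on the minus and 1 on the plus strand. Each precursor is printed 5′ to 3′ on its own strand, because the loci share the duplex and differ in the part between its strands. The capitals at the left end are the star sequence read from the fold and those at the right end are the mature sequence.
PotatoMir1004398855 at PGSC0003DMB000000202:672079-672170 (plus strand): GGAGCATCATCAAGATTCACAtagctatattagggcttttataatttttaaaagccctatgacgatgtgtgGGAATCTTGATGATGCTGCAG
PotatoMir1001772511 at PGSC0003DMB000000072:779977-780067 (minus strand): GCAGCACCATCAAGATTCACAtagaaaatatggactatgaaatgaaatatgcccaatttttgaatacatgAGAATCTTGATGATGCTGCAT
PotatoMir1001772511 at PGSC0003DMB000000091:29804-29907 (minus strand): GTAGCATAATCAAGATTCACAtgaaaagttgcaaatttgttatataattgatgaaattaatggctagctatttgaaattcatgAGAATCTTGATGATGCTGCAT
PotatoMir1001772511 at PGSC0003DMB000000365:115356-115479 (minus strand): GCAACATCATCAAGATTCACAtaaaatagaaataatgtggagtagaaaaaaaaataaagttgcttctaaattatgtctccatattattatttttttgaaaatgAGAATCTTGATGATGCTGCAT
PotatoMir1001772509 at PGSC0003DMB000000086:229147-229291 (minus strand): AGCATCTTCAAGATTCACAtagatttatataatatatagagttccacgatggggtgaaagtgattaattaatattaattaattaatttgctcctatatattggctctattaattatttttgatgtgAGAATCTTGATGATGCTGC

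The mature sequence was on the 3′ arm at 5 of 5 miR172 loci, compared with 157 of 324 loci of the list (48.5%) and 59.6% of the loci of named families. The 11 miR156 loci all had it on the 5′ arm. Loci of a family have related sequences, so these counts are not of independent cases. PotatoMir1001772511 was placed at 3 loci, and 8.56% of the distinct sequences of the list were placed at 3 or more. Its reads could come from any of these loci and cannot be divided between them. The 19 nt sequence PotatoMir1001772509 is listed at PGSC0003DMB000000086 only, but it was also found inside the precursors of PGSC0003DMB000000072, PGSC0003DMB000000091 and PGSC0003DMB000000365, in total in 4 precursors. Its 6 reads therefore match 4 loci of the list without a mismatch. The precursor at PGSC0003DMB000000086 ends with the 19 nt sequence, and the genomic bases after it were not used here. PotatoMir1004398855 was found in its own precursor alone, so its 67 reads have 1 origin among these hairpins.

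The precursors were of unequal length, and 4 of 5 were lower in GC than the median of the list. Their lengths were 92 nt for PotatoMir1004398855, 91, 104 and 124 nt for PotatoMir1001772511 and 145 nt for PotatoMir1001772509, against a median of 85 nt over all loci. The differences lay between the arms, where 50, 49, 62, 82 and 107 bases separated star and mature sequence in the same order of loci (median of the list 42). The list places the shortest mature sequence at the locus with the longest distance between the arms. That sequence also lies in the PotatoMir1001772511 precursors, with 49, 62 and 82 bases there, so only the placement in the list is described. GC content was 38.0% for the PotatoMir1004398855 precursor and 25.8 to 34.1% for the other 4, where the median of the list was 37.5%. Without gaps, the parts between the arms shared at most 38 bases, between PGSC0003DMB000000365 and PGSC0003DMB000000086, which have the longest parts (82 and 107 bases). The number to be had from length and base composition alone was not computed.

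**Figure D2:**
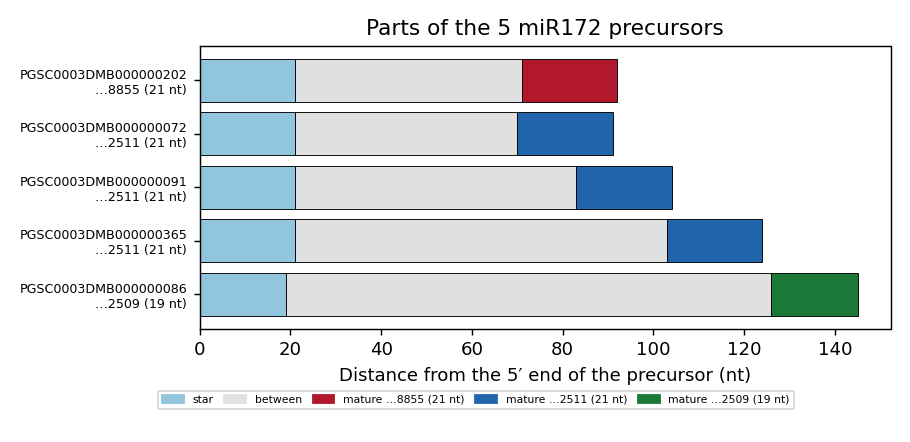
The 5 miR172 precursors drawn to scale from their 5′ end (x axis, nt), with the star sequence at the left, the bases between the arms in grey and the mature sequence at the right. Total length runs from 91 to 145 nt, and the part between the arms from 49 to 107 nt.

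The minimum free energy with RNAfold at 37 °C was -47.10 kcal/mol for PotatoMir1004398855 at 92 nt, but -30.70 kcal/mol for the PotatoMir1001772511 precursor of nearly the same length at PGSC0003DMB000000072. It was -34.90 kcal/mol at PGSC0003DMB000000091, -39.90 kcal/mol at PGSC0003DMB000000365 and -48.40 kcal/mol at PGSC0003DMB000000086. Per base, PotatoMir1004398855 had -0.512 kcal/mol and ranked 78 of 324 from the lowest. The other 4 precursors had -0.322 to -0.337 kcal/mol per base and ranked between 251 and 265. A single hairpin loop was found in 5 of 5 folds, as in 99.4% of the list.

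**Figure D3:**
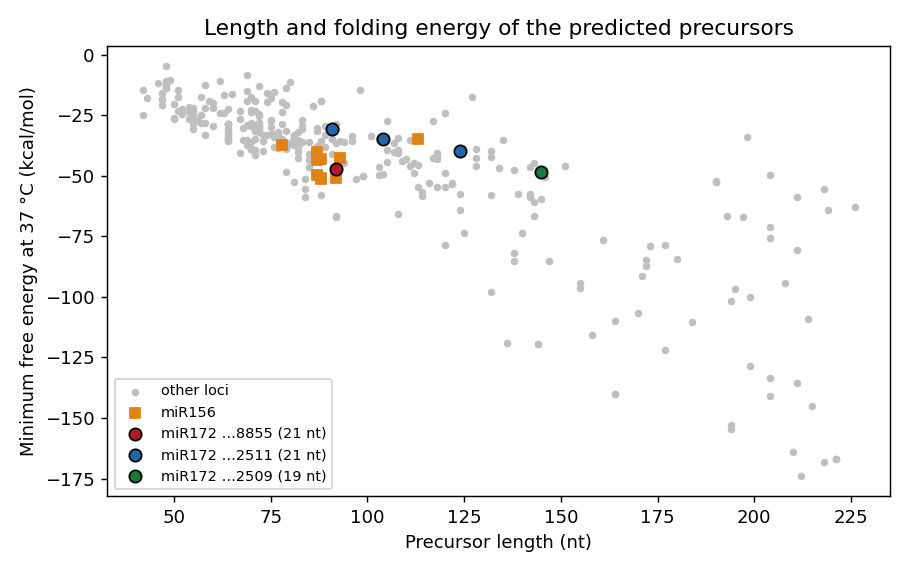
Minimum free energy at 37 °C (y axis, kcal/mol) against precursor length (x axis, nt) for all 324 loci, with miR172 loci as coloured circles and miR156 loci as squares. PotatoMir1004398855 with -47.10 kcal/mol lies below the PotatoMir1001772511 precursor of similar length with -30.70 kcal/mol.

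All 5 loci met the duplex criteria of the study (opposite arms, no more than 4 mismatches, and no more than 1 asymmetric bulge, of 2 nt or less), as did 81.8% of the list, whose loci the authors had selected with such criteria. With G:U pairs counted as mismatches 5 of 5 miR172 loci still met them, and 53.7% of the list. The duplexes were alike in their counts. Each had 2 unpaired mature bases, no asymmetric bulge and a star sequence as long as the mature sequence. Of the list 17.6% had 2 unpaired mature bases without an asymmetric bulge, and 68.5% had a star sequence of equal length. With the star as read here, 6 of the 11 miR156 loci met the criteria. Of these 11 loci, 0 had 2 unpaired mature bases without an asymmetric bulge or a star sequence as long as the mature sequence. The authors had selected the loci with such criteria, so a locus that missed them here is not shown to fail them in the study. The 3′ overhang of 2 nt was set by the way the star was read and is no finding.

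One unpaired base was the same in all hairpins and the other was different in each. Base 1 of the mature sequence, whether A or G, was unpaired at 5 of 5 loci, against 23.1% of all loci, 22.3% of those on the 3′ arm and 5 of the 11 miR156 loci. The star base opposite it was the same at all 5 loci, so they share this feature and are not independent cases. The second unpaired base was base 18 at PGSC0003DMB000000202, base 13 at PGSC0003DMB000000072, base 12 at PGSC0003DMB000000091, base 16 at PGSC0003DMB000000365 and base 11 at PGSC0003DMB000000086. The seed was fully paired with the star in each hairpin. A G:U pair was found at base 18 of the PGSC0003DMB000000091 duplex and in no other miR172 duplex.

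**Figure D4:**
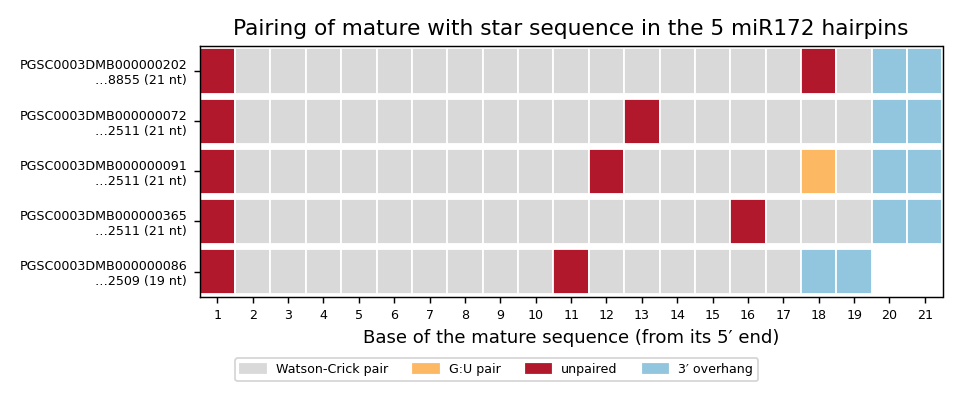
Pairing of each mature base (x axis, position from the 5′ end) with the star sequence at the 5 miR172 loci. Base 1 is unpaired in each row, and the second unpaired base is at position 18, 13, 12, 16 or 11.

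Leaving out the 3′ overhangs, the mature strands of the duplexes differed at base 1 alone, and the star strands differed in their 5′ part. The 5 star sequences are shown with the base opposite the second unpaired mature base in capitals, since that base was found at 1 locus each.
Star at PGSC0003DMB000000202: gGagcatcatcaagattcaca
Star at PGSC0003DMB000000072: gcagcaCcatcaagattcaca
Star at PGSC0003DMB000000091: gtagcatAatcaagattcaca
Star at PGSC0003DMB000000365: gcaAcatcatcaagattcaca
Star at PGSC0003DMB000000086: agcatcTtcaagattcaca

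The last 12 bases, tcaagattcaca, were identical in all 5 star sequences and lie opposite the 5′ part of the mature sequence. The substitutions were in the 5′ part of the star. Counted from the 5′ end of the star at PGSC0003DMB000000202, whose base is given first, they were G2C and T7C at PGSC0003DMB000000072, G2T and C8A at PGSC0003DMB000000091, and G2C and G4A at PGSC0003DMB000000365. The 19 nt star at PGSC0003DMB000000086, aligned at its 3′ end, had A9T. Between any 2 loci the star sequences shared 17 to 19 bases. In each hairpin the capital base was absent from the other stars at that position, over 5 loci or, at position 2, over the 4 loci with 21 nt stars. This follows from the pairing, since the mature base there is identical at the other loci compared and pairs in each of them. In the study's prediction table the star sequence was identical to the one read from the fold at 5 of 5 loci. Both readings used RNAfold, and the outer end of the star was set by the end of the listed precursor. The identity is therefore no independent support, and it was not counted at the other loci of the list.

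Other predicted miRNA loci on the same superscaffolds were far from the miR172 hairpins. At PGSC0003DMB000000072 the nearest was PotatoMir1000971035 (named miR5303, 13 reads), 113550 bases away, followed by the miR160 locus of PotatoMir1005487486 (572 reads) at 275020 bases. PGSC0003DMB000000202 and PGSC0003DMB000000365 held no other locus of the list. RefSeq lists 5 MIR172 genes for the potato assembly SolTub_3.0. Their lengths equal those of the 5 precursors one to one, namely MIR172D with 92, MIR172B with 91, MIR172A with 104, MIR172E with 124 and MIR172C with 145 bases. This match rests on length alone, since the builds differ, and gene annotation around the loci was not used here. Length is not specific, since 2 to 4 of the 215 miRNA genes in RefSeq had each of these lengths. Whether the gene records derive from this study was not checked, so the match is no independent support for the loci.

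The site sequences of the study's stricter target prediction were paired again with the deposited miRNAs. All sites were in transcripts annotated as APETALA2-like genes, and there were 4 distinct site sequences. They are printed 5′ to 3′ as RNA, with the base opposite miRNA base 1 in capitals, because the 3 longer ones differed at that base alone.
PGSC0003DMT400010229 (PHAP2A protein, also in APETALA2 transcripts): cugcagcaucaucaggauucC
PGSC0003DMT400071732 (Relative to APETALA2 1, also in PHAP2B transcripts): cugcagcaucaucaggauucG
PGSC0003DMT400031398 (APETALA2): cugcagcaucaucaggauucU
PGSC0003DMT400016881 (Apetala 2): gcagcaucaucaggauucU

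Scores differed between the sites only through base 1 of the miRNA. Pairing was scored over the first 17 bases, where each mismatch added 1 and each G:U pair added 0.5, so that a low score is a close match. PotatoMir1004398855 scored 0.5 with the site of PGSC0003DMT400010229, where base 1 was paired. It scored 1.0 at PGSC0003DMT400031398 and PGSC0003DMT400016881, where base 1 formed a G:U pair, and 1.5 at PGSC0003DMT400071732, where base 1 was mismatched. PotatoMir1001772511 and PotatoMir1001772509 scored 0.5 at PGSC0003DMT400031398 and PGSC0003DMT400016881 and 1.5 at both others.

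The site of *RAP1* (PGSC0003DMT400071732) therefore had the same score of 1.5 with the 3 sequences, and its base opposite base 1 paired with neither A nor G. Base 7, within the seed, formed a G:U pair in 12 of 12 pairings. The other positions from 2 to 19 formed Watson-Crick pairs in all of them. At these positions the 3 miRNAs are identical and so are the sites, so the 12 pairings repeat 1 comparison there. The sites had also been predicted from their match to these miRNAs, so close pairing is no finding. Base 21 of PotatoMir1004398855 was paired at the 3 sites of 21 nt, whereas base 21 of PotatoMir1001772511 was mismatched at each of them. The site of PGSC0003DMT400016881 is given with 19 bases in the sheet, so nothing could be said about bases 20 and 21 there.

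**Figure D5:**
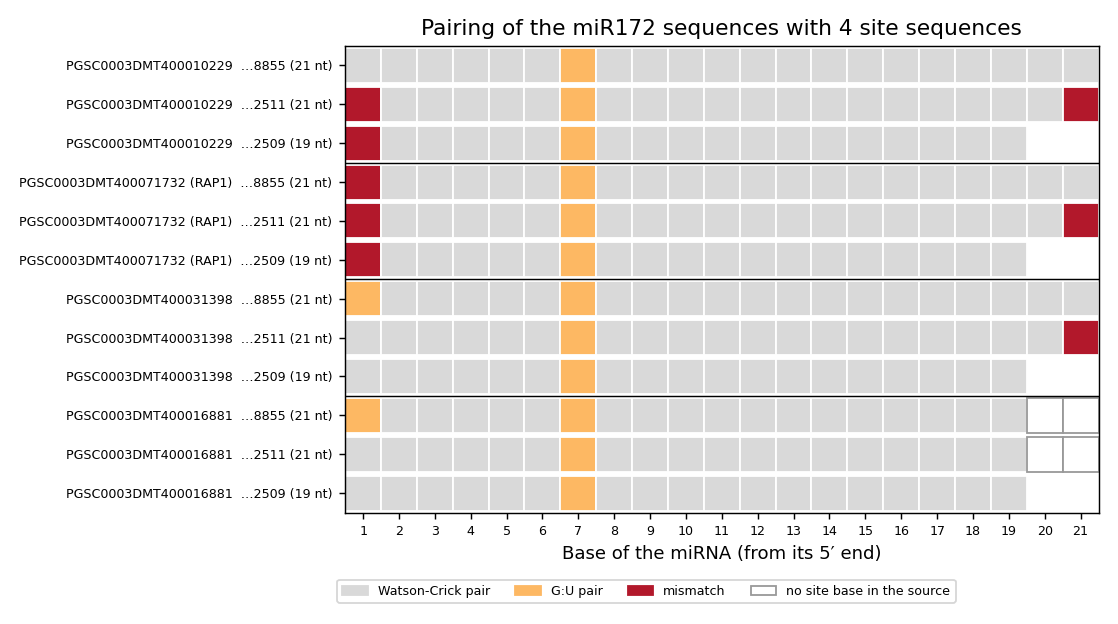
Pairing of each miRNA base (x axis, position from the 5′ end) with 4 site sequences, for the 3 miR172 sequences at each site. Base 7 forms a G:U pair in all 12 rows, where the miRNAs are identical and so are the sites. Base 1 is paired, G:U or mismatched depending on the site and the miRNA.

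Duplex energies were computed with RNAduplex at 37 °C. With the site of *RAP1*, PotatoMir1004398855 had -35.50 kcal/mol, PotatoMir1001772511 had -33.50 kcal/mol and PotatoMir1001772509 had -31.10 kcal/mol. The lowest energy of the 12 pairings was that of PotatoMir1004398855 with the site of PGSC0003DMT400010229 at -37.20 kcal/mol, where PotatoMir1001772511 had -33.10 and PotatoMir1001772509 had -30.70 kcal/mol. At PGSC0003DMT400031398 the values were -35.50, -33.70 and -31.30 kcal/mol. There PotatoMir1004398855 had a lower energy than PotatoMir1001772511 but a higher score over the first 17 bases (1.0 and 0.5). Over all positions, which the energy covers, its score was the lower one (1.0 and 1.5), since base 21 of PotatoMir1001772511 is mismatched. PotatoMir1001772509 scored 0.5 over either span and lacks the last 2 bases. PotatoMir1001772509 was weaker than PotatoMir1001772511 at each site, which its lack of the last 2 bases sets in advance and is no finding. At PGSC0003DMT400016881 PotatoMir1004398855 and PotatoMir1001772511 both had -33.00 kcal/mol, and PotatoMir1001772509 had -31.30 kcal/mol. PotatoMir1001772511 and PotatoMir1001772509 formed the same pairs there, because the site is given without bases opposite the last 2. Cleavage or repression of these transcripts was not measured in these data.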

How the data were processed

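Small RNAs of 12 libraries were sequenced. The authors trimmed reads with Cutadapt (version 1.1 in the submitters' processing notes), removed other RNA classes with cross_match, aligned to the DM superscaffolds with Bowtie and predicted miRNAs with RNAfold and miRDeep-P. The deposited list holds 1 whole-number count per sequence over all libraries, without normalization, and 65 loci with fewer than 5 reads. The paper states that predictions with fewer than 5 reads were removed, so its published set is smaller than this list. Shares of the list given here include those loci. Without them 47.9% of loci had the mature sequence on the 3′ arm, against 48.5% with them. Positions are those of the list, and the version of the genome build is not given in the sources used here.

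RNAfold and RNAduplex of ViennaRNA 2.7.2 were used at 37 °C. The star was read from the precursor end opposite to the miRNA with 2 nt overhanging at its 3′ end. If the cut fell on an unpaired base, the closest paired base up to 5 nt away served. Homologue names, star sequences and site sequences came from the study's supplementary sheets, and no value was taken from them. Python 3.11.15, SciPy 1.17.1 and Matplotlib 3.10.9 were used. Star reading and site pairing were tested on simulated sequences with a single planted unpaired base or mismatch. In the simulated hairpins no unpaired first base, asymmetric bulge or G:U pair was planted. The members, the miR156 list and the named sequences (neighbours in reads included) were chosen with earlier results of these data known. No test between groups was made. Values of single tissues were not analysed here.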

Additional observations from a re-analysis of the deposited data

How the results depend on the processing

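Of the fold alternatives, 10 of 10 (20 °C and 37 °C without dangling ends, at 5 loci) gave the same star and pairing, and 5 loci met the criteria throughout, also with G:U pairs as mismatches. Energies of the precursors PGSC0003DMB000000202, PGSC0003DMB000000072, PGSC0003DMB000000091, PGSC0003DMB000000365 and PGSC0003DMB000000086 were -61.39, -45.06, -50.85, -57.24 and -68.76 kcal/mol at 20 °C, and -45.40, -29.00, -33.20, -38.20 and -47.70 kcal/mol without dangling ends. Summed over loci, miR172 had 253 reads (0.0101% of the list) and miR156 had 16425 reads, because each locus repeats its sequence's reads. Ranked over loci, PotatoMir1004398855, PotatoMir1001772511 and PotatoMir1001772509 were at 100, 106 and 238. A minimum of 10 reads removes PotatoMir1001772509, left miR172 with 127 reads and gave that sequence no rank. With G:U pairs scored 1, scores of 0.5 became 1.0, and scores of 1.5 and of 1.0 became 2.0, so that PotatoMir1004398855 no longer preferred PGSC0003DMT400031398 to PGSC0003DMT400071732. Over all positions PotatoMir1001772511 scored 2.5 at PGSC0003DMT400010229 and PGSC0003DMT400071732 and 1.5 at PGSC0003DMT400031398, since its base 21 is mismatched there. Energies with the sites at 20 °C, an alternative chosen after seeing the data, were lower, and at PGSC0003DMT400016881 they were -41.83, -41.75 and -39.65 kcal/mol. Depth limits the 19 nt form most, with 6 reads. No paired analysis was possible because the list has no values of single libraries, and for the same reason no replicate could be left out.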

Other observations

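The identifiers of the list follow the alphabet. When the 222 distinct mature sequences were sorted by their bases, the number in the identifier rose in 221 of 221 steps, with a median step of 16455. The numbers of PotatoMir1001772509 and PotatoMir1001772511 differ by 2, so that 1 number lies between the 19 nt and the 21 nt form. Only 3 of the 221 steps were this small or smaller. If the order holds for all identifiers, the sequence with the number between them begins with the 19 bases of PotatoMir1001772509. It is not among the predicted miRNAs, so its reads are in no miR172 count given here, and it was not analysed.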
